A study of Brassica napus with 14 samples.

Results

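The genes described here are those of Brassica napus (oilseed rape) whose transcripts stood highest in seeds labelled GLOB, 7 days past fertilization. Of 96219 genes in the authors' table, 20562 had a GLOB value of at least 5 FPKM, and 379 of these were at least 2-fold above every other stage. That is 1.84% of the genes considered. The stage was compared with the highest of the other 4 stages on the log2(FPKM + 1) scale, where 2-fold is a difference of 1. FPKM counts the sequenced fragments of a transcript per unit of its length and of the library, so levels of different genes can be set side by side. These same values chose the genes, and their height in GLOB is therefore a description and not a finding.

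Polyadenylated RNA of cultivar DH12075 was sequenced from plants grown in long days at 22 °C, with flowers pollinated by hand. The groups were ovules at day 0 (OV, 3 libraries) and whole seeds at day 7 (GLOB, 3 libraries), day 10 (HEART, 3 libraries), day 28 (MG, 3 libraries) and day 35 (DS, 2 libraries). No treatment or genotype separated them. Each gene has a single value for a stage in the authors' table. Replicate spread and library depth are thus unknown, no difference below was tested, and values carry no error.

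Soon after fertilization the embryo is a small ball of cells, named the globular stage. Around it the endosperm divides and draws sugars from the mother plant, while the integuments of the ovule expand and become the seed coat. Most of the tissue of such a seed is endosperm and seed coat. A whole seed mixes all these tissues, and fewer cells of a type cannot be told apart from less RNA per cell.

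The stage label was set against marker genes. Of 24 embryo patterning genes, 15 had FPKM summed over all copies below 1 in GLOB, among them WOX2 (0.230), WOX8 (0.0325) and STM (0.0177). The other 9 were higher, such as the auxin response genes MP (28.7) and BDL (25.3), but 13 of the 24 summed to less in GLOB than in OV, MP among them with 68.2 in OV. The stage of the embryo was not read from them. LEC1, an embryo regulator, summed to 0.677 FPKM in GLOB and to 65.7 at HEART. AGL62, a MADS-box gene of the early endosperm in Arabidopsis, summed to 2.73 in GLOB, 1.53 in OV, 4.96 at HEART and 5.36 in MG. Other early endosperm genes summed in GLOB to 3.27 (MINI3), 0.972 (PHE1), 0.179 (AGL36), 0.151 (PHE2) and 0 (IKU2). AGL28 and AGL90 had no copy. No copy of these genes reached 5 FPKM in GLOB, and the state of the endosperm was not read from them. Of 19 flavonoid genes of the seed coat, 15 summed to more in GLOB than in OV and 4 to less. BAN, the anthocyanidin reductase of the inner integument in Arabidopsis, rose from 0.707 in OV to 185 in GLOB, while the MADS-box regulator TT16 had 378 in OV and 190 in GLOB. Markers of pollen and tapetum summed to 0.163 FPKM in GLOB, those of the silique wall to 3.77 and those of egg cell and synergids to 5.73. No copy on these 3 lists reached 5 FPKM in GLOB. The egg cell and synergid list summed to 2.47 in OV and 8.60 at HEART. It was thus lower in the ovules than in GLOB, and the presence of these cells was not read from it.

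The 379 genes spanned 5.08 to 7585 FPKM in GLOB. Their median was 2.67 FPKM in OV, 22.5 in GLOB, 7.44 at HEART, 0.709 in MG and 0.135 in DS. The sequence of medians was a rise by day 7, a partial decline by day 10 and near absence later. In MG 58.3% of them were below 1 FPKM, against 10.1% of all 20562 genes considered, and in DS 77.0% against 19.5%. The rule itself took only genes lower in MG and DS than in GLOB, so part of this contrast follows from the choice. In OV 111 of them (29.3%) were below 1 FPKM, against 4.83% of all genes considered. At HEART 18 (4.75%) were, against 0.238%. The rule favours low values at these stages too. Together the 379 genes made up 1.67% of the summed FPKM of OV, 5.27% of that of GLOB and 2.05% of that of HEART. Without the single gene BnaN07g32230 the GLOB share was 4.09%.

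**Figure D1:**
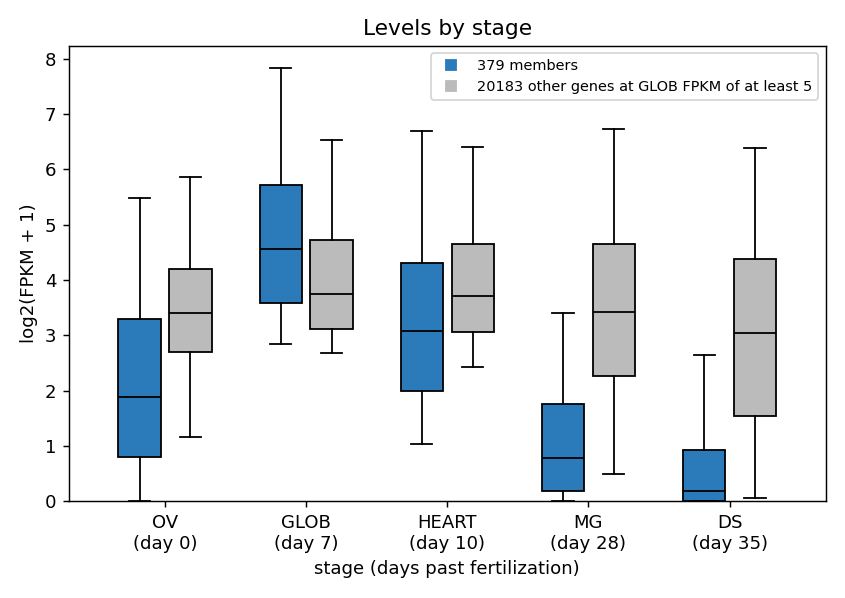
Levels on the log2(FPKM + 1) scale (vertical axis) of the 379 genes (blue) and of the other 20183 genes with a GLOB value of at least 5 FPKM (grey) at each stage (horizontal axis). Boxes span the quartiles with the median as a line, and whiskers the 5th to 95th percentile of genes. The blue boxes are highest in GLOB, which the choice of genes fixes, and lie near 0 in MG and DS.

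HEART, 3 days later, was the next highest stage for 301 of the 379 genes (79.4%). OV was next for 61, MG for 12 and DS for 2, and 3 genes were listed at 0 in all 4 other stages. Among all 6320 genes with their highest value in GLOB, HEART was next for 69.1%. The HEART value was a median of 35.5% of the GLOB value among the 379. In 175 of them HEART was at least 2-fold above OV, and in 11 OV was at least 2-fold above HEART. In 193 both lay within 2-fold of each other. For these 3 counts the shares over all genes considered were not computed, so they only describe the set. The difference to the next highest stage ran from 1.00 to 3.83 on the log2 scale with a median of 1.29, and it reached 2 in 39 genes.

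**Figure D2:**
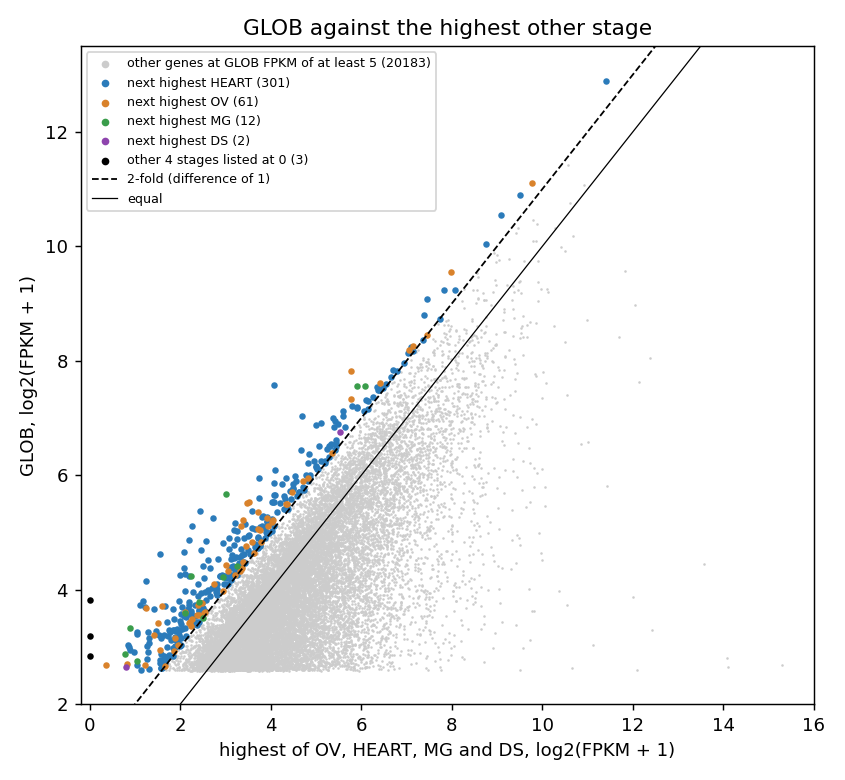
Each point is 1 gene with a GLOB value of at least 5 FPKM, with its level in GLOB (vertical axis) against its highest level among OV, HEART, MG and DS (horizontal axis), both as log2(FPKM + 1). Coloured points lie on or above the dashed 2-fold line, and 301 of the 379 have HEART as their next highest stage.

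Fewer genes passed this rule for GLOB than for any other stage. The same rule gave 1145 genes in OV (5.62% of those at 5 FPKM or more there), 685 at HEART (3.25%), 2358 in MG (12.1%) and 4524 in DS (22.9%). GLOB and HEART lie 3 days apart, and both had fewer such genes than the other stages. Without HEART in the comparison 3152 genes passed for GLOB, against fewer stages than in the counts above. Why the counts differ between stages was not tested. Taken 1 stage at a time, 28.8% of the 20562 genes were at least 2-fold higher in GLOB than in OV, 3.78% than at HEART, 34.2% than in MG and 48.6% than in DS.

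The gene with the highest GLOB value encodes a Kunitz-type protein. BnaN07g32230 is paired with AT1G72290 (WSCP), a chlorophyll-binding protein related to protease inhibitors, and had 2281 FPKM in OV, 7585 in GLOB, 2730 at HEART, 19.4 in MG and 4.01 in DS. It held similar levels in OV and HEART and stood 2.78-fold above HEART in GLOB. A second copy, Bna07572s0010, had 252 FPKM in OV, 753 in GLOB, 74.0 at HEART and 1.68 in MG, so it fell much further by HEART than the first. Another copy of AT1G72290, BnaN07g32260, reached 6.98 FPKM in GLOB.

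Other Kunitz family genes followed. The A copy of AT1G73325, BnaN07g32930, had 29.5 FPKM in OV, 539 in GLOB, 174 at HEART, 0.635 in MG and 0.870 in DS. The C copy, BnaN16g39970, had 28.2 in OV, 605 in GLOB, 228 at HEART, 0.560 in MG and 0.647 in DS, close to its partner at every stage. KTI1 (BnaN07g32900), a Kunitz trypsin inhibitor, went from 5.43 FPKM in OV to 192 in GLOB and 92.5 at HEART. In all, 6 of the 13 Kunitz family copies at 5 FPKM or more belonged to the set, against 1.84% of all genes considered. This list was drawn up after the values had been seen, which raises its count. Yet BnaN16g39080, another WSCP copy, had 83.4 FPKM in GLOB and 155 at HEART, and BnaN19g19610, another KTI1 copy, had 1.196 FPKM in GLOB and 9193 in MG.

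Delta-VPE, a vacuolar cysteine protease, acts in the death of inner integument cells in Arabidopsis. Its copy BnaN05g23680 had 1.57 FPKM in OV, 1500 in GLOB, 543 at HEART, 3.12 in MG and 0.280 in DS. The gene was thus almost off before fertilization. A second copy, BnaN15g38820, had 0.880 FPKM in OV, 1199 in GLOB and 682 at HEART, and at a difference of 0.81 it stayed outside the set. A further copy, BnaN01g29800, had 58.3 FPKM in OV and 51.2 in GLOB, without such a rise. On the list of proteases, inhibitors and cell death, 5 of 16 expressed copies (those with a GLOB value of at least 5 FPKM) were in the set. They were the 3 WSCP copies, KTI1 and delta-VPE, and the share over all genes considered was 1.84%. The median difference of the list to the next highest stage was 0.18, against -0.33 over all genes considered.

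Several other genes above 200 FPKM in GLOB were already abundant in the ovule. BGLU18 (BnaN05g16660), a beta-glucosidase of the endoplasmic reticulum, had 867 FPKM in OV, 2197 in GLOB, 617 at HEART, 4.50 in MG and 3.04 in DS. FLOR1 (BnaN11g45210), a leucine-rich repeat protein that binds the floral regulator AGAMOUS in Arabidopsis, had 399 in OV, 1903 in GLOB and 727 at HEART. BnaN19g05670, a TRAF-like gene paired with AT5G26280, had 361 in OV, 1051 in GLOB and 432 at HEART. For BGLU18 OV was the next highest stage, and for FLOR1 and the TRAF-like gene it was HEART.

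The plastid envelope protein OEP16-1 was represented by an A and a C copy. BnaN07g15470 (A) had 142 FPKM in OV, 424 in GLOB and 211 at HEART, and BnaN14g18740 (C) had 143, 600 and 269. The 2 expressed copies of CAD9, of the cinnamyl alcohol dehydrogenase family and 3 copies in all, were alike as well. BnaN17g54740 had 48.3 FPKM in OV, 328 in GLOB and 163 at HEART, and BnaN06g40000 had 24.9, 288 and 141. PGL5 (BnaN06g28120), a 6-phosphogluconolactonase, and BnaN06g36630, paired with AT4G05030, had 289 and 306 FPKM in GLOB with 131 and 139 in OV. The peroxidase PRX21 (BnaN04g24170) rose from 14.3 FPKM in OV to 301 in GLOB and was at 135 at HEART. The zinc finger gene SZF1 (BnaN18g34390) had 59.7 in OV, 247 in GLOB and 122 at HEART, and BnaN08g09240, paired with AT4G14930, had 36.8, 228 and 102.

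A further group was close to 0 in the ovule. GASA9 (BnaN09g35030), of a family of small cysteine-rich peptides that respond to gibberellin, had 0.258 FPKM in OV, 445 in GLOB, 167 at HEART and 0.408 in DS, and was listed at 0 in MG. MLP423 (BnaN07g10580), a major latex protein homologue, had 3.69 in OV, 280 in GLOB, 130 at HEART and 0.153 in DS, and was also listed at 0 in MG. Both were thus nearly confined to the days 7 and 10 among the stages sampled. Over the whole set, 78 genes were at 1 FPKM or more in GLOB and HEART alone. The rule favours low values in the other stages, and the share over all genes considered was not computed.

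**Figure D3:**
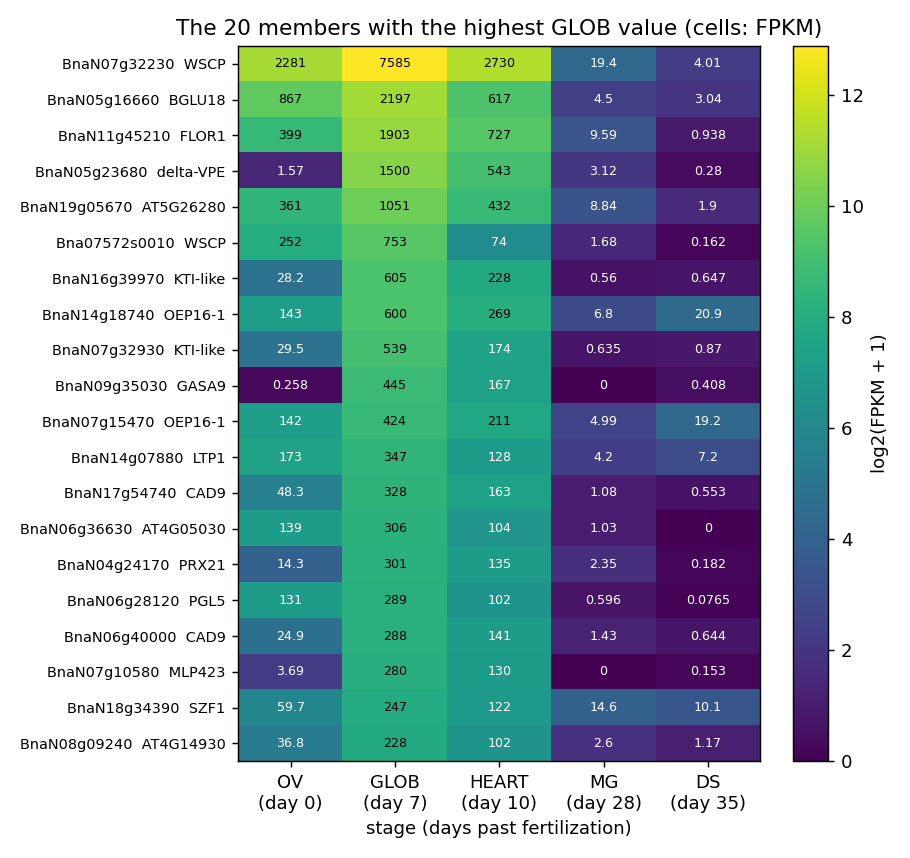
The 20 genes of the set with the highest GLOB value (rows, from the highest down) at each stage (columns), with the FPKM printed in each cell and the colour giving log2(FPKM + 1). WSCP, BGLU18 and FLOR1 are already high in OV, delta-VPE, GASA9 and MLP423 are not, and all 20 are far lower in MG and DS than in GLOB.

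Scaling touched some of these genes. On a common sum per stage, BGLU18, PGL5, BnaN06g36630, the 2 CAD9 copies, MLP423, OEP16-1 on A, KTI1, LTP1, SZF1 and a copy of SUS1 (BnaN19g47940) stayed highest in GLOB but under 2-fold. Quantile normalization gives the first-ranked gene of each stage the same value, and so the WSCP copy BnaN07g32230, first in OV, GLOB and HEART, came to a difference of 0. With it FLOR1 came to 0.80, and BGLU18, PGL5, BnaN06g36630, LTP1 and the same SUS1 copy also fell under 2-fold.

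The largest differences to the next stage belonged to genes of moderate level. BnaN13g14570, paired with the lipid transfer protein family gene AT5G55450, had 7.79 FPKM in OV, 190 in GLOB, 15.9 at HEART, 2.12 in MG and 0.158 in DS. Its difference to HEART was 3.49, and it was the only gene above 100 FPKM in GLOB with a difference of 3 or more. LTL1 (BnaN15g54490), a GDSL lipase, had 2.07 in OV, 40.7 in GLOB and 4.39 at HEART. BnaN01g19600, paired with AT3G30280 of the BAHD acyltransferase family, had 0.0455 in OV, 23.8 in GLOB and 1.94 at HEART. MES1 (BnaN04g15720), a methyl esterase of methyl salicylate in Arabidopsis, had 0.154 in OV, 12.97 in GLOB and 1.27 at HEART.

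BCAT2 (BnaN06g06300), an aminotransferase of branched-chain amino acids, had 0.0187 FPKM in OV, 49.8 in GLOB, 3.30 at HEART, 7.02 in MG and 0.570 in DS. Unlike most of the set it was higher again in MG than at HEART. The defensin-like gene Bna17220s0010, paired with AT3G04945, had 0.880 in OV, 28.3 in GLOB and 3.58 at HEART and was listed at 0 in MG and DS. BnaN03g43830 (AT4G17718) had 33.4 FPKM in GLOB against 3.79 at HEART, and BnaN18g09760 (AT2G36724) 16.8 against 1.37. BnaN14g56710 (AT2G13542) had 6.15 FPKM in GLOB and was listed at 0 elsewhere.

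Near the limits the choice was a fine one. The genes just inside the 2-fold limit were OEP16-1 on A, LTP1 (BnaN14g07880) and ZAT12 (BnaN10g14270), each at a difference of 1.00. Just outside it were BnaN12g11830 (AT5G59150), BnaN09g14240 (AT1G63220) and BnaN07g35320 (AT1G76410), which also round to 1.00. BnaN16g38050, BnaN17g50610 and BnaN12g13000, with GLOB values of 5.08, 5.14 and 5.21 FPKM, were just inside the level limit. BnaN06g31160, BnaN11g05240 and BnaN13g02630, at 4.87, 4.86 and 4.78 FPKM, were just outside.

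Lists of genes known from seed biology were then read against the set. Of their 228 expressed copies 18 were in the set (7.89%, against 1.84% of all genes considered), and these fell in 7 of the 16 lists. The lists contain genes chosen with results of these data known, so the share is a count and nothing more.

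Sugar and amino acid supply was represented by 5 of 30 expressed copies. All 5 were among the 13 copies for sugar transport and cleavage, and the 17 copies of amino acid and nitrate transporters had 0. The split was made after the values were seen. With 1.84% of all genes considered in the set, 0 of 17 does not set the latter copies apart. CWINV4 is a cell wall invertase, which splits sucrose outside the cell. Its copy BnaN04g23740 had 7.66 FPKM in OV, 49.2 in GLOB, 15.95 at HEART and 0.530 in MG, and BnaN14g55030 had 1.82, 37.9, 13.2 and 0.197. Both were listed at 0 in DS. Sucrose synthase SUS1 had 45.3 FPKM in GLOB in BnaN03g08730, with 10.4 in OV and 8.44 at HEART, and 68.3 in BnaN19g47940, with 32.0 in OV and 32.2 at HEART. SWEET15 (BnaN10g21390), a sucrose exporter of the seed coat in Arabidopsis, had 0.881 in OV, 12.7 in GLOB, 4.09 at HEART and 4.37 in MG. Summed over all its copies, however, SWEET15 had 14.1 FPKM in GLOB and 136 in MG. Its copy BnaN02g04410 had 0.722 in GLOB and 54.6 in MG. Of the 30 copies 23 were at least 2-fold higher in GLOB than in OV, where 28.8% of all genes considered were. At least 2-fold lower were 0, where 3.56% of all were. On a common sum 19 were higher, a scale on which the share of all genes was not computed.

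Cutin and suberin genes gave 4 of 14, against 1.84% of all genes considered. DCR, an acyltransferase of cutin synthesis, had 36.4 FPKM in GLOB in BnaN06g27670 (10.9 in OV, 15.1 at HEART) and 94.2 in BnaN17g37950 (16.9 in OV, 42.3 at HEART). A further pair of DCR copies, BnaN02g39370 and BnaN12g47030, had 100.1 and 166 FPKM in GLOB and 91.4 and 110 at HEART, so the more abundant copies were outside the set. The lipid transfer protein LTP1 (BnaN14g07880) had 173 in OV, 347 in GLOB and 128 at HEART. LTP3 (BnaN03g10010) had 10.1 in OV, 44.6 in GLOB and 6.64 at HEART, while its copies BnaN02g10550 and BnaN12g11710, at 1013 and 357 FPKM in GLOB, were higher still at HEART.

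Single genes came from 4 other lists. TAR2 (BnaN11g17930), an aminotransferase of auxin synthesis, had 0.756 FPKM in OV, 11.6 in GLOB and 1.69 at HEART, and was the only copy at 5 FPKM in its list of hormone synthesis and seed size. The vacuolar aquaporin TIP2;1 (BnaN15g44000) had 1.83 in OV, 9.72 in GLOB and 1.04 at HEART, in a list of 13 expressed copies for cell expansion. Summed over all its copies, however, TIP2;1 had 46.0 FPKM in OV and 12.0 in GLOB. Its copy BnaN05g27120 had 33.3 in OV and 0.623 in GLOB. STK (BnaN19g31850), the MADS-box gene of ovule identity, had 9.84 in OV, 32.9 in GLOB and 13.7 at HEART. The main STK copy, BnaN09g24170, had 158, 741 and 373, and its difference of 0.99 left it just outside. TT5 (BnaN17g52980), a chalcone isomerase, had 7.09 FPKM in GLOB and 2.67 at HEART, and was the single set member among 44 expressed copies of seed coat flavonoid genes.

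Most flavonoid genes were above OV in GLOB, and part of them rose further by HEART. In GLOB 35 of the 44 copies were at least 2-fold above OV (28.8% of all genes considered) and 2, both TT16 (BnaN09g06360 and BnaN19g06970), at least 2-fold below it (3.56%). Against HEART 16 were at least 2-fold lower (1.9%) and 7 higher (3.78%). Mucilage genes had 0 of 28 copies in the set. Of the 28, 19 were at least 2-fold higher than in OV (28.8% of all genes considered) and 1 lower. Cell cycle and DNA replication genes had 0 of 44. Of these 44 copies 20 were at least 2-fold lower in GLOB than in OV, against 3.56% of all genes considered. On a common sum 15 mucilage copies were higher and 34 cell cycle copies lower than in OV. The shares of all genes were not computed on that scale, where their median of GLOB minus OV moved from 0.45 to -0.02. Embryo patterning genes had 0 of 7 in the set, endosperm regulators 0 of 12, type I MADS genes 0 of 2 and maturation markers 0 of 2. With 1.84% of all genes considered in the set, 0 members in lists of these sizes, mucilage and cell cycle included, sets none of them apart.

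**Figure D4:**
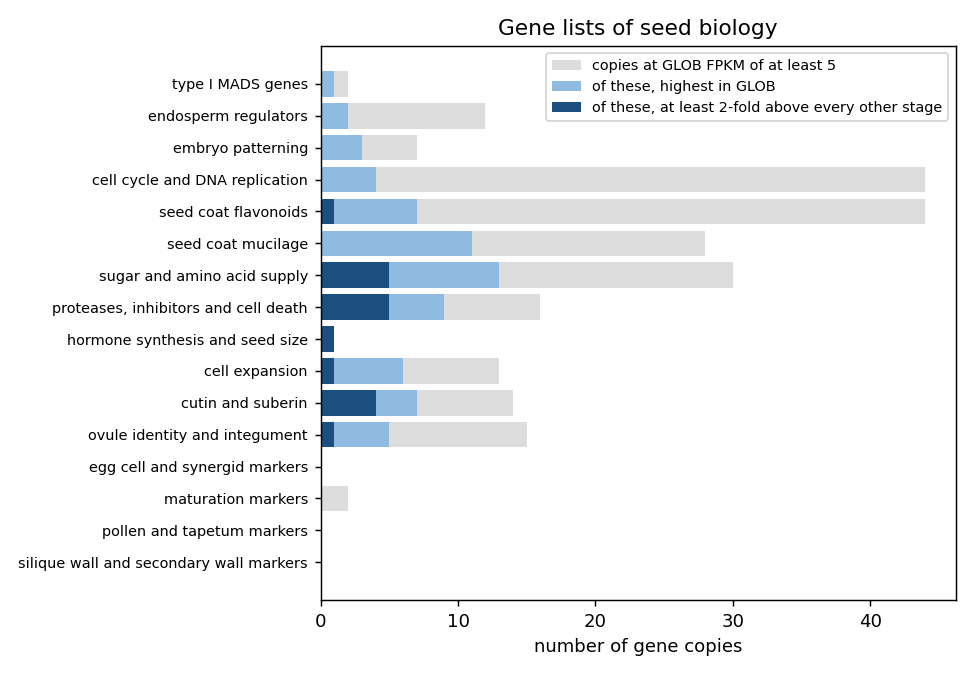
For each of 16 gene lists (rows), bars give the number of copies with a GLOB value of at least 5 FPKM (grey), those of them highest in GLOB (light blue) and those at least 2-fold above every other stage (dark blue). Dark bars are longest for sugar and amino acid supply (5 of 30) and proteases and inhibitors (5 of 16). They are absent for cell cycle genes (0 of 44), among other lists. Over all genes considered the share was 1.84%, so 0 in a list of such a size is not unusual.

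Genes of hormone response, of rapid response and of the GASA family in the set were grouped into lists after the values had been seen. That choice raises the counts of these lists, which are set beside 1.84% of all genes considered. ORA47 is a transcription factor that turns on jasmonate synthesis in Arabidopsis, and all 4 of its copies were in the set. BnaN07g23970 had 7.22 FPKM in OV, 143 in GLOB, 59.2 at HEART and 1.37 in MG. BnaN16g27490 had 5.23 in OV, 138 in GLOB and 47.3 at HEART. BnaN07g34080 and BnaN16g41280 had 116 and 82.1 in GLOB and 30.8 and 27.9 at HEART. The 4 copies shared 1 course. JAZ2 (BnaN16g27470) and JAZ9 (BnaN07g31090), repressors of jasmonate response, had 14.5 and 16.9 FPKM in GLOB. With them 6 of 52 expressed copies of jasmonate genes were in the set, against 1.84% of all genes considered. No expressed copy of a jasmonate synthesis gene was in it. Summed over copies, LOX3 had 64.0 FPKM in GLOB and 115 at HEART, AOC3 101 and 141, AOS 63.8 and 72.0, and OPR3 103 and 109. LOX2 had 261 and 239, and AOC4 253 and 251.

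Genes that respond rapidly to wounding, touch and cold in Arabidopsis gave 5 of 35, against 1.84% of all genes considered. WRKY46, a transcription factor, had 57.0 FPKM in GLOB in BnaN04g00960 (2.33 in OV, 15.8 at HEART) and 74.7 in BnaN14g27760 (2.65 in OV, 35.8 at HEART). The others were SZF1, ZAT12 with 52.6 FPKM in GLOB and ERF2 (BnaN12g36420) with 17.9. Of the 35 copies 34 were at least 2-fold above OV in GLOB, where 28.8% of all genes considered were. On a common sum 2 of the 35 passed the rule in place of 5.

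Type A response regulators, which are induced by cytokinin and dampen its signal, gave 4 of 7 expressed copies (1.84% of all genes considered). ARR7 had 11.9 FPKM in GLOB in BnaN06g13280, 8.23 in BnaN18g23860 and 7.93 in BnaN15g15240, with 1.34, 1.90 and 1.48 at HEART and at most 0.175 in OV. A further ARR7 copy, Bna15244s0010, had 49.5 FPKM in GLOB and 54.0 at HEART and was not in the set. ARR16 (BnaN13g23640) had 0.345 in OV, 26.8 in GLOB and 11.6 at HEART. Abscisic acid receptors gave 3 of 9, against the same 1.84%. These were PYL6 at 19.99 (BnaN04g26190) and 35.4 FPKM (BnaN14g57270) and PYL9 (BnaN15g18330) at 18.2 FPKM in GLOB. Over all copies the receptors summed to 155 FPKM in GLOB and to 1360 in DS, where PYL7 alone had 1265.

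The GASA family gave 5 of 14, against 1.84% of all genes considered. Besides GASA9 these were GASA4 (BnaN13g06890) with 164 FPKM in GLOB and 75.05 at HEART, GASA1 with 22.9 (BnaN16g41930) and 12.2 (BnaN09g10920), and GASA7 (BnaN09g09630) with 12.1. Family members differed widely in their stage. GASA10 (BnaN13g12050) had 122 FPKM in GLOB and 474 at HEART, and the GASA7 copy BnaN03g39390 had 21.9 in GLOB and 1011 in MG.

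Most Arabidopsis loci were in the set with 1 copy. The 365 genes with such a locus belonged to 293 loci, and 50 of these had 2 or more copies in it. FAF2, of a family that limits shoot meristem size in Arabidopsis, had all 4 copies in the set. BnaN08g31480 had 67.4 FPKM in GLOB and 16.1 at HEART, BnaN15g01570 37.3 and 5.59, BnaN10g01550 11.2 and 2.83, and BnaN18g00400 10.2 and 2.66. AT2G28870 had 5 copies in the set with 11.6 to 45.4 FPKM in GLOB, and a sixth copy below 1 FPKM at every stage.

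Arrays of neighbouring copies had the most members. AT5G17340 had 7 copies in the set on chromosomes 3 and 13, with GLOB values from 7.89 FPKM (BnaN13g08370) to 32.3 (BnaN13g08360). BnaN13g08310 had 0.497 in OV, 24.3 in GLOB and 3.24 at HEART, and BnaN03g07130 had 0.476, 12.4 and 1.15. Not every copy of the array behaved so, since BnaN03g07050 had 23.9 FPKM in GLOB and 21.2 at HEART. AT4G33145 had 6 copies in the set, on chromosomes 1 and 11, and all 9 of its copies were listed at 0 in OV, MG and DS. BnaN11g05210 had 27.8 FPKM in GLOB and 4.93 at HEART, and BnaN01g04610 had 27.1 and 6.68. BnaN11g05230 and BnaN01g04600, with 13.2 and 8.10 FPKM in GLOB, were listed at 0 at HEART too. How reads shared by near-identical neighbours were assigned is not stated, so the split of values among such copies is uncertain.

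**Figure D5:**
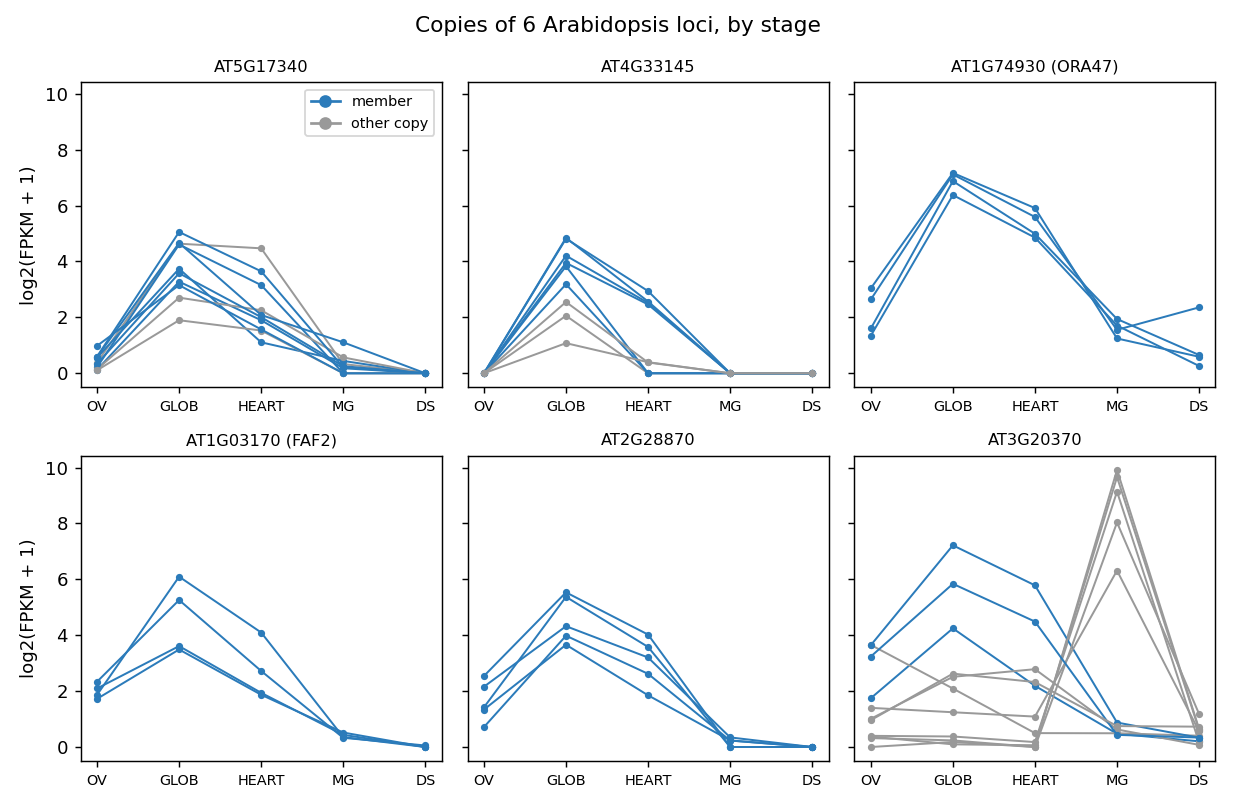
Levels as log2(FPKM + 1) (vertical axes) over the 5 stages (horizontal axes) of every copy with at least 1 FPKM in some stage, for 6 Arabidopsis loci. Blue lines are genes of the set and grey lines other copies. ORA47 and FAF2 have blue lines alone, whereas AT3G20370 has 3 blue lines and 5 grey ones that are high in MG alone.

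Copies outside the set varied in their stage. Of the 476 other copies of these loci with 5 FPKM or more in any stage, 220 (46.2%) were highest in GLOB, against 18.1% of all genes at that level outside the set. Of the 345 other copies at 5 FPKM or more in GLOB itself, a choice that favours this stage, the same 220 were 63.8%, against 29.4% of all 20183 genes considered that were not in the set. The median difference of the 345 to the next highest stage was 0.30, against -0.35. Among the 215 loci with 2 or more expressed copies, 28 had all of them in the set and 165 had 1.

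The other 256 of the 476 copies peaked at another stage, 90 of them in MG, 69 at HEART, 55 in OV and 42 in DS. At least 2-fold above every other stage were 61 copies from 31 loci in MG (12.8%, against 7.19% of all genes at that level outside the set) and 28 from 19 loci in DS (5.88% against 13.8%). In OV they were 24 from 18 loci (5.04% against 3.49%) and at HEART 17 from 14 loci (3.57% against 2.09%). AT3G20370, a TRAF-like locus, had 3 copies in the set, and BnaN11g38220 among them had 11.5 FPKM in OV, 148 in GLOB, 54.2 at HEART and 0.835 in MG. Its copy BnaN03g36140 had 0.247 in OV, 0.178 in GLOB and 965 in MG and was listed at 0 at HEART. BnaN13g44830, on the C subgenome, had 0.0680 in GLOB and 807 in MG. The same held for AT5G26280, where BnaN09g05240 had 0.238 FPKM in GLOB and 2013 in MG while BnaN19g05670 had 1051 in GLOB and 8.84 in MG.

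LTP1 and ESP showed the same kind of contrast. The LTP1 copy BnaN14g56050 had 7.22 FPKM in GLOB and 2207 in MG. ESP, an epithiospecifier protein that steers glucosinolate breakdown, had 9.41 FPKM in OV, 21.5 in GLOB and 3.30 at HEART in BnaN16g07360, and 3.01 in GLOB and 1847 in MG in BnaN06g38810. Among the copies highest in OV was the BGLU18 copy BnaN06g01640 with 123 FPKM in OV and 8.41 in GLOB.

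Pairs with exactly 1 A and 1 C copy gave a similar view. Of 1376 such pairs with both copies at 5 FPKM or more in GLOB, 6 had both in the set and 19 had 1. The pairs with the largest summed GLOB value were AT1G73325 and OEP16-1, both copies in the set, and then GASA9. The C copy of GASA9, BnaN15g19130, had 1.02 FPKM in OV, 122 in GLOB and 72.9 at HEART, a lower level and a slower decline than the A copy. In AT3G16470 the A copy BnaN05g26910 was in the set with 60.9 FPKM in GLOB, and the C copy BnaN15g43630, at 375 in GLOB and 248 in OV, was not. In the 19 pairs the partner outside the set was highest in GLOB in 13. The partner that departed most was BnaN10g24550 (AT5G08000), with 96.8 FPKM in OV and 10.8 in GLOB, whereas BnaN19g59070 had 9.52 and 36.4.

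The C subgenome held 48.8% of the placed genes of the set, against 50.0% of all genes considered. Adjacent genes of the set formed 8 runs with 17 genes, the longest of 3 genes, and 4 of the runs were copies of 1 locus.

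A few genes of the set kept a level in older seeds, and they are named here after their values were seen. AGP12 (BnaN15g46840), an arabinogalactan peptide, had 9.18 FPKM in OV, 188 in GLOB, 56.5 at HEART, 59.1 in MG and 0.497 in DS. BnaN14g59420, a defensin-like gene paired with AT2G43550, had 15.3, 188, 56.8, 67.0 and 1.85. GLN1;3 (BnaN05g26010), a cytosolic glutamine synthetase, had 16.1 in OV, 107 in GLOB, 35.3 at HEART, 41.2 in MG and 45.2 in DS, and was the gene of the set with the highest DS value. In all, 50 of the 379 genes had at least 5 FPKM in MG and 21 in DS.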

How the data were processed

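Polyadenylated RNA of 14 libraries was sequenced as single-end reads of 100 bases. Per the labels' series design text, Trimmomatic (version 0.36) did the trimming, HiSat2 the alignment against DH12075, and Cuffquant and Cuffdiff the quantification and normalization. The submitters' processing notes name TopHat2 and Cuffnorm instead, so the aligner is uncertain. The authors deposited 1 table of FPKM values with 1 value per gene and stage. How replicates were combined, the annotation version and the treatment of reads shared by copies are not given in the sources used here. The table has 2 further columns that match no sample described, and these were not used.

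Stages were compared as log2(FPKM + 1), which understates differences of low genes. Planned tests across libraries were replaced by description, because no value per library was given. A gene with an exact 0 is described as listed at 0, since this can be a failed estimate. The gene set, the lists and the members named were chosen with earlier results of these data known. The rule for named genes took the 20 highest in GLOB, the 15 with the largest difference, every member of the 16 seed lists, the 3 genes on each side of each limit and the highest A and C pairs. A further 7 lists, the split of the supply list into sugar and amino acid genes and the comparison with copies highest at other stages were added after the values were seen. The table pairs genes with Arabidopsis loci, and symbols were attached to these from general knowledge of Arabidopsis nomenclature. Roles are those known in Arabidopsis. Subgenomes were read from the chromosome number. Computing used Python 3.11.15, pandas 2.3.3 and numpy 2.4.6. Run on simulated data with 12540 genes, the rule recovered 200 of 200 genes raised 8-fold and called 0 others. The simulated stages otherwise shared the same level with little noise, so this outcome was set by the design. It checks the code and says nothing of false calls in the real table, whose spread is unknown.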

Additional observations from a re-analysis of the deposited data

How the results depend on the processing

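The number of genes in the set depended on the limits. It was 1238 at 1.5-fold and 39 at 4-fold, 3152 without HEART and 596 without OV (added after the values were seen), and 130 of 11163 loci when FPKM was summed over copies. The number with HEART next was 993 at 1.5-fold, 26 at 4-fold, 554 without OV and 108 for summed loci. List genes in the set numbered 29 at 1.5-fold, 3 at 4-fold, 82 without HEART and 31 without OV. The median difference was 0.81 at 1.5-fold and 2.29 at 4-fold. A pseudocount of 0.1 gave 462 genes, no pseudocount 476, a minimum of 1 FPKM or none 516 and a minimum of 10 FPKM 293.

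Rescaling to a common sum gave 306 genes, of which 266 were shared with the 379. The median of ratios gave 404 (378 shared), and quantile normalization 367 (325 shared). All 379 stayed highest in GLOB on a common sum and with the median of ratios, and 378 with quantile normalization. On a common sum the median of GLOB minus MG over all genes considered moved from 0.39 to 1.47, and that of GLOB minus OV from 0.45 to -0.02. Of the 49 genes named by level, difference or list, 11 fell under 2-fold on a common sum and 7 with quantile normalization. The cause was not tested. No paired analysis was possible because the table gives 1 value per stage, and replicates could not be left out in turn for the same reason.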

Other observations

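Among the 379 genes, 14 were paired with no Arabidopsis locus (3.69%, against 1.45% of all genes considered). One of them, BnaN12g49510, had 0.118 FPKM in OV, 9.08 in GLOB, 0.535 at HEART and 0.862 in MG. Another, BnaN03g50700, had 39.6 in OV, 83.2 in GLOB and 1.49 at HEART, and lies next to BnaN03g50690 (AT4G29020), which had 14.4, 120 and 33.3.

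The 11 genes of the set whose OV value was at least 2-fold above HEART were lower at day 10 than before fertilization. KCS16 (BnaN01g03840), a fatty acid elongase, had 12.5 FPKM in OV, 32.1 in GLOB and 2.86 at HEART. BnaN17g49110 (AT4G29020) had 25.1, 58.8 and 2.82. BnaN09g01590 (AT4G02320), of the pectin methylesterase family, had 19.3, 44.1 and 5.44.

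A few further genes of the set are named here, picked after their values were seen. PEPC1 (BnaN08g25690), a phosphatase induced by phosphate shortage in Arabidopsis, had 15.5 FPKM in OV, 158 in GLOB and 68.3 at HEART. PS2 (BnaN16g39690), a pyrophosphatase, had 10.4, 60.9 and 28.0. IAA4, an auxin response repressor, had both its A copy (BnaN09g18530) and its C copy (BnaN19g22550) in the set, at 9.73 and 40.2 FPKM in GLOB and 3.65 and 16.7 at HEART.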
